A study of Mus musculus with 6 samples.

Results

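The 10 genes described here encode the proteins that break down heme and take up, export, store and sense iron. They are Hmox1, Hmox2, Blvra, Blvrb, Tfrc, Slc11a2, Slc40a1, Fth1, Ftl1 and Ireb2, picked by name from the 25241 genes of the deposited tables, and all 10 have a row. RNA was sequenced from wild-type mouse neural stem cells of the subgranular zone, a layer of the hippocampus in which neurons form in the adult, grown in culture up to passage 3. There were 6 libraries, 3 of cells exposed for 72 h to CdCl2 at 0.8 μM and 3 of control cells left untreated. The replicates are labelled biological, but no label says whether they came from separate animals, so p-values measure the spread between these cultures, which may be partly technical.

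Heme oxygenase opens the heme ring and releases iron, carbon monoxide and biliverdin, and biliverdin reductase turns biliverdin into bilirubin. Transferrin-bound iron enters by the transferrin receptor and leaves the endosome through the transporter Slc11a2 (DMT1). Iron that is not used is stored in ferritin, a shell of heavy and light chains, or leaves by ferroportin (Slc40a1). Iron regulatory proteins, one of which is encoded by Ireb2, bind hairpins called iron responsive elements when iron is scarce. Bound at the 5′ end of ferritin and ferroportin mRNA they block translation, and bound at the 3′ end of Tfrc mRNA they protect it from decay.

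The hairpins are shown because iron regulatory proteins are known to bind them, and a strict pattern found them in a UTR of 4 of the 10 genes. Matches in coding sequence of the 10 genes were left out, and elements that differ from the pattern would be missed. Slc11a2 is also known to have transcripts with such an element, which this pattern did not match. A search of GENCODE M21 mouse transcripts (build GRCm38) looked on the sense strand for C, 5 bases, CAGTGN and 5 bases, with the first and last 5 able to pair, G-T pairs allowed. It found 1 such site in the 5′ UTR of Fth1, Ftl1 and Slc40a1 and 4 in the 3′ UTR of Tfrc. Of 21877 protein-coding genes, 0.142% held the pattern in a 5′ UTR and 0.59% in a 3′ UTR. Each site is printed 5′ to 3′ as DNA, 30 bases long, with the 6 loop bases in capitals:
Fth1, 5′ UTR: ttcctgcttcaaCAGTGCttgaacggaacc
Ftl1, 5′ UTR: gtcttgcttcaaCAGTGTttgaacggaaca
Slc40a1, 5′ UTR: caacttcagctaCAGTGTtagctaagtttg
Tfrc, 3′ UTR, at base 3321 of the transcript: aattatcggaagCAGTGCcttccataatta
Tfrc, 3′ UTR, at base 3700: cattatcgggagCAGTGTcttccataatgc
Tfrc, 3′ UTR, at base 3765: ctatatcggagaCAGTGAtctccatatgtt
Tfrc, 3′ UTR, at base 3812: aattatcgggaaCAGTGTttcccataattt
The positions are those of the C that opens each pattern. Gene counts measure the amount of these transcripts and not their translation, so binding of a regulatory protein to the ferritin or ferroportin sites would not itself be seen in them.

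All 10 genes passed the filter on low counts, with 14369 genes tested in all. At an adjusted p below 0.05, 6 of the 10 rose with cadmium and 0 fell, beside 23.1% of all genes tested that rose, 22.4% that fell and 45.5% that did either. The 6 were Hmox1, Slc40a1, Tfrc, Blvrb, Fth1 and Slc11a2. The 10 genes were chosen with earlier results of these data known, so the count beside these shares is a description and no test. Hmox2, Blvra, Ftl1 and Ireb2 did not pass, at unadjusted p-values of 0.30, 0.043, 0.028 and 0.61. The median log2 fold change of the 10 genes was 0.19, and that of all genes tested -0.01. In 7 of the 10 the cadmium libraries did not overlap the control libraries, as they did not in 56.3% of all genes tested.

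Library totals ran from 37710042 to 41523231 counts. The share of counts from 84 ribosomal protein genes was higher with cadmium, at 4.32 ± 0.124% against 3.97 ± 0.0899% (SD, n = 3) without overlap, and its part in the results was not tested. Astrocyte markers were lower with cadmium (values further on), and in bulk RNA fewer cells of a type and less RNA per cell cannot be told apart. The neural stem cell markers were present, led by Vim at 3448 CPM and Fabp7 at 1534 CPM in control, where CPM is the count scaled to a common library size (edgeR CPM with TMM factors). Of 10 neural stem cell markers 4 rose, including Vim (0.22 ± 0.04) and Fabp7 (0.12 ± 0.04), and 5 fell. Among the others, named after their values were seen, Nes rose by 0.78 ± 0.05 on the log2 scale and Slc1a3 by 0.19 ± 0.04. Hes5 (-1.20 ± 0.14), Msi1 (-0.41 ± 0.05), Pax6 (-0.28 ± 0.06) and Sox2 (-0.27 ± 0.04) were among those that fell. The Fabp7 call was lost without control replicate 2, cadmium replicate 1 or cadmium replicate 2. The part of these shifts in the results was not tested. Control replicate 3 stood furthest from its own group, with chi-square values per degree of freedom of 12.8 and 11.8 against the other control libraries and 5.12 between those.

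**Figure D1:**
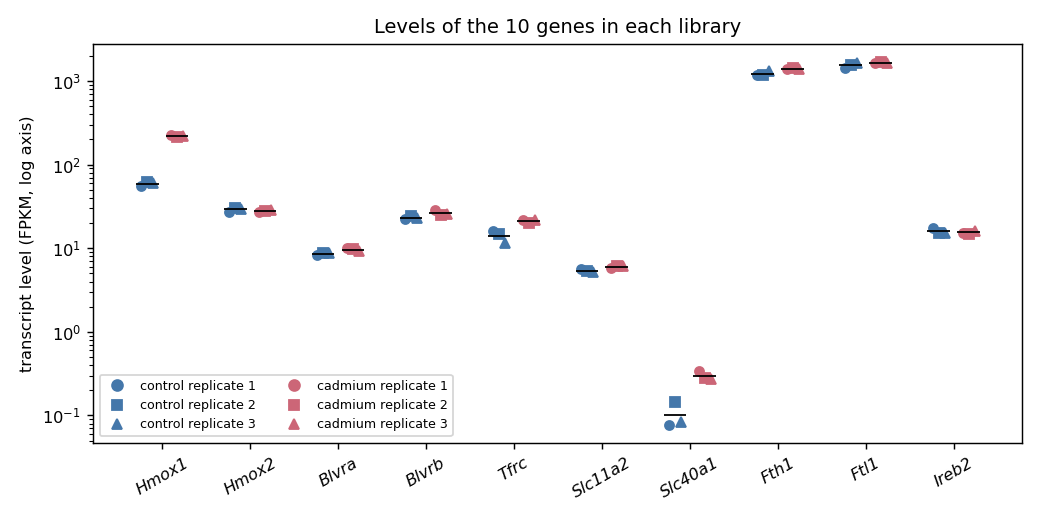
Transcript level of each of the 10 genes in each library, in FPKM (counts scaled by gene length and library total) on a log axis, with blue points for control, red points for cadmium, marker shapes for replicates and black lines for group means. Hmox1 moved from a mean of 59.5 to 220.2 FPKM, the ferritin chains stayed at the top above 1180 FPKM, and Slc40a1 lay lowest, under 0.34 FPKM in every library.

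Hmox1, the inducible heme oxygenase (Entrez 15368), had 86.9, 96.7 and 97.1 CPM in control replicates 1 to 3 and 356, 341 and 348 CPM in cadmium replicates 1 to 3. The lowest cadmium library was thus well above the highest control library, and the libraries of each group lay close together. It rose 3.72-fold (95% interval 3.47 to 3.99), a log2 fold change of 1.90 ± 0.05 (SE, edgeR adjusted p = 2.4e-12). That placed it 65th of 14369 genes by log2 fold change and 17th by gain in CPM. The gain of 255 CPM was 42.5% of the net summed gain of the 10 genes, which was 599 CPM.

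Hmox2, the constitutive heme oxygenase (15369), had 58.0, 65.1 and 64.6 CPM in control and 58.3, 60.1 and 61.8 CPM in cadmium libraries. The groups overlapped. Its log2 fold change was -0.06 ± 0.05 (edgeR adjusted p = 0.40), and the interval of the fold ran from 0.885 to 1.04. Within a library, where scaling has no part, the Hmox1 to Hmox2 ratio of FPKM was 2.04, 2.03 and 2.05 in control and 8.32, 7.73 and 7.68 in cadmium. This is a ratio of the ratios of 3.88, with complete separation (two-sided exact permutation p = 0.1, the smallest that 3 against 3 allows, and 0.125 adjusted over 5 ratios). The Hmox1 part of heme oxygenase FPKM was 67.1 ± 0.134% without and 88.8 ± 0.441% with cadmium (SD, n = 3). The sum of both genes went from 88.7 ± 5.10 to 248 ± 4.71 FPKM.

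Both biliverdin reductase genes had small differences, in which the calls were not firm. Blvrb (233016), the reductase also known for reducing flavins, had 21.8, 23.8 and 23.3 CPM in control and 28.3, 25.2 and 26.0 CPM in cadmium libraries. All cadmium libraries were higher, cadmium replicate 1 the most. It rose by 0.20 ± 0.07 on the log2 scale (edgeR adjusted p = 0.025). This call was lost without control replicate 1 (adjusted p = 0.093), cadmium replicate 1 (0.12) or cadmium replicate 3 (0.051), and its adjusted p ranged from 0.011 to 0.12 over all alternatives.

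Blvra (109778), the main reductase of adult heme breakdown, had 13.7, 14.5 and 14.7 CPM in control and 16.6, 16.4 and 15.3 CPM in cadmium libraries. The groups did not overlap, yet the log2 fold change of 0.17 ± 0.08 did not pass (edgeR adjusted p = 0.083, interval of the fold 1.00 to 1.26). It passed with limma on FPKM, at adjusted p = 0.038 for log2(FPKM + 0.1). The Blvra to Blvrb ratio was 0.373 ± 0.00787 without and 0.365 ± 0.0222 with cadmium (SD, n = 3, exact permutation p = 0.6, adjusted over 5 ratios 0.6). Summed FPKM of both reductases went from 31.7 ± 1.24 to 36.1 ± 1.90, a fold of 1.14 beside the 2.80 of the summed heme oxygenases.

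**Figure D2:**
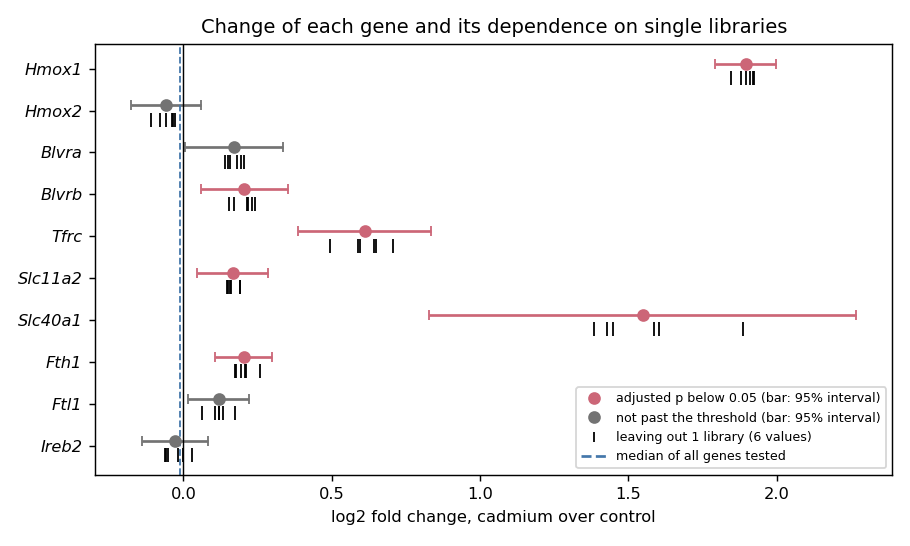
Log2 fold change of cadmium over control for each gene (points) with its 95% interval (bars), red where the adjusted p was below 0.05 and grey where not, and ticks for the 6 values that result when 1 library is left out. The Hmox1 ticks span 1.85 to 1.92 and those of Slc40a1 1.39 to 1.89, and the dashed line is the median of all genes tested.

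Tfrc, the transferrin receptor (22042), had 81.7, 75.3 and 60.2 CPM in control and 113, 105 and 114 CPM in cadmium libraries. All cadmium libraries were above all control libraries, and control replicate 3 was the lowest of the 6. Tfrc rose 1.53-fold (95% interval 1.31 to 1.78), or 0.61 ± 0.10 on the log2 scale (edgeR adjusted p = 0.00099). Leaving out control replicate 3 gave 0.50 (adjusted p = 1.1e-07). Its gain was 38.2 CPM.

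Slc11a2 (18174), which carries iron and also cadmium across membranes, had 35.0, 33.0 and 33.4 CPM in control and 36.6, 38.2 and 38.9 CPM in cadmium libraries. Its groups lay side by side without overlap. It rose by 0.17 ± 0.06 on the log2 scale (edgeR adjusted p = 0.025). The call was lost without control replicate 2 (adjusted p = 0.082), cadmium replicate 2 (0.069) or cadmium replicate 3 (0.11) and on log2(FPKM + 0.1) (0.051), within a range of 0.017 to 0.11 over all alternatives. Its transcripts with and without an iron responsive element are summed in 1 row and cannot be told apart.

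Slc40a1, which encodes ferroportin, the iron exporter (53945), was the least abundant of the 10. It had 11, 21 and 12 counts in control and 48, 37 and 39 counts in cadmium libraries, equal to 0.268, 0.502 and 0.292 CPM and 1.18, 0.985 and 0.962 CPM. Every cadmium library was above every control library, at a level where few reads decide the value. It rose 2.93-fold with a wide interval of 1.78 to 4.82, or 1.55 ± 0.34 on the log2 scale (edgeR adjusted p = 0.0017). Its FPKM was at percentile 8.98 of the genes tested, and on log2(FPKM + 1) its difference was 0.24. The Slc11a2 to Slc40a1 ratio of FPKM went from 57.4 ± 18.7 to 20.4 ± 2.81 (SD, n = 3, exact permutation p = 0.1, adjusted over 5 ratios 0.125).

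Both ferritin chains were among the most abundant transcripts, at percentiles of 99.9 of FPKM. Fth1, the heavy chain that oxidises iron (14319), had 1103, 1108 and 1239 CPM in control and 1316, 1343 and 1312 CPM in cadmium libraries. The cadmium libraries were all higher and close to each other, and control replicate 3 lay between its group and theirs. Fth1 rose by 0.20 ± 0.04 on the log2 scale, 1.15-fold (95% interval 1.08 to 1.23, edgeR adjusted p = 0.0019). The gain of 173.5 CPM was 29.0% of the net summed gain of the 10 genes.

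Ftl1, the light chain that seeds the iron core (14325), had 1373, 1488 and 1602 CPM in control and 1616, 1642 and 1587 CPM in cadmium libraries. Control replicate 3 was above cadmium replicate 3, so the groups overlapped. Ftl1 was at a log2 fold change of 0.12 ± 0.05 (edgeR adjusted p = 0.059, interval of the fold 1.01 to 1.17). Without control replicate 3 it was 0.18 (adjusted p = 0.00044), without control replicate 1 it was 0.06 (0.26), and adjusted p ranged from 0.00044 to 0.26 over all alternatives. Fth1 and Ftl1 have pseudogene copies, and reads shared with them may be lost or split.

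The Fth1 to Ftl1 ratio of FPKM was 0.828, 0.767 and 0.796 in control and 0.838, 0.842 and 0.851 in cadmium libraries. The cadmium ratios were higher by a factor of 1.06, with complete separation (exact permutation p = 0.1, n = 3, adjusted over 5 ratios 0.125). The Tfrc to Fth1 ratio was 0.0135, 0.0124 and 0.00890 in control and 0.0157, 0.0143 and 0.0159 in cadmium libraries. It was 1.34 times as high in cadmium (exact permutation p = 0.1, n = 3, adjusted over 5 ratios 0.125), a log2 difference of 0.42 that became 0.24 without control replicate 3.

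**Figure D3:**
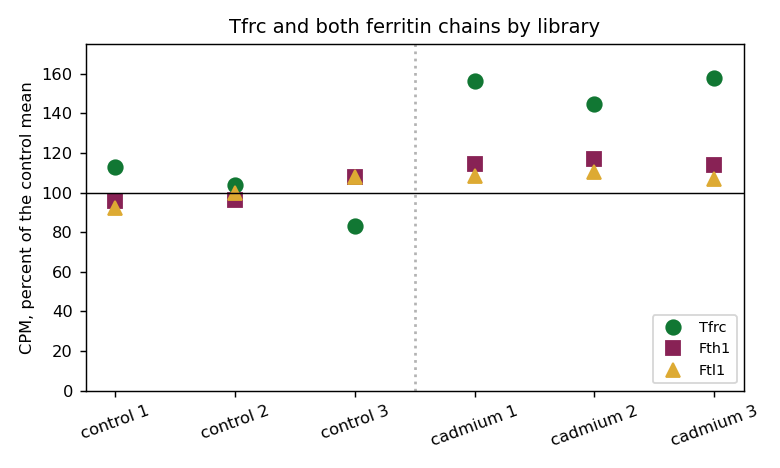
CPM of Tfrc (green circles), Fth1 (purple squares) and Ftl1 (yellow triangles) in each library as a percent of that gene's control mean. Control replicate 3 had Tfrc at 83.2% with both ferritin chains at 107.7%, whereas all 3 genes were above 100% in every cadmium library.

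In control replicates 1 and 3 the transferrin receptor and the ferritins lay on opposite sides of their control means. Control replicate 1 had Tfrc at 112.8% of its control mean with Fth1 at 95.9% and Ftl1 at 92.3%. Control replicate 3 had Tfrc at 83.2% with both ferritins at 107.7%. In the cadmium libraries Tfrc was at 144.5% to 157.6%, Fth1 at 114.1% to 116.7% and Ftl1 at 106.7% to 110.4%, all above the control mean. With 3 libraries in a group, no relation between these genes was tested.

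Ireb2, which encodes the iron sensor IRP2 (64602), had 145, 129.7 and 128 CPM in control and 130.1, 127 and 138 CPM in cadmium libraries. The groups overlapped throughout, with control replicate 1 the highest. The log2 fold change was -0.03 ± 0.05 (edgeR adjusted p = 0.70), and the interval of the fold ran from 0.908 to 1.06. The activity of IRP2 is set mainly by breakdown of the protein, which these data do not measure. Aco1, which encodes the other iron regulatory protein, was at 174 ± 2.77 and 178 ± 1.54 CPM (SD, n = 3, adjusted p = 0.58). It was named after its value was seen.

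**Figure D4:**
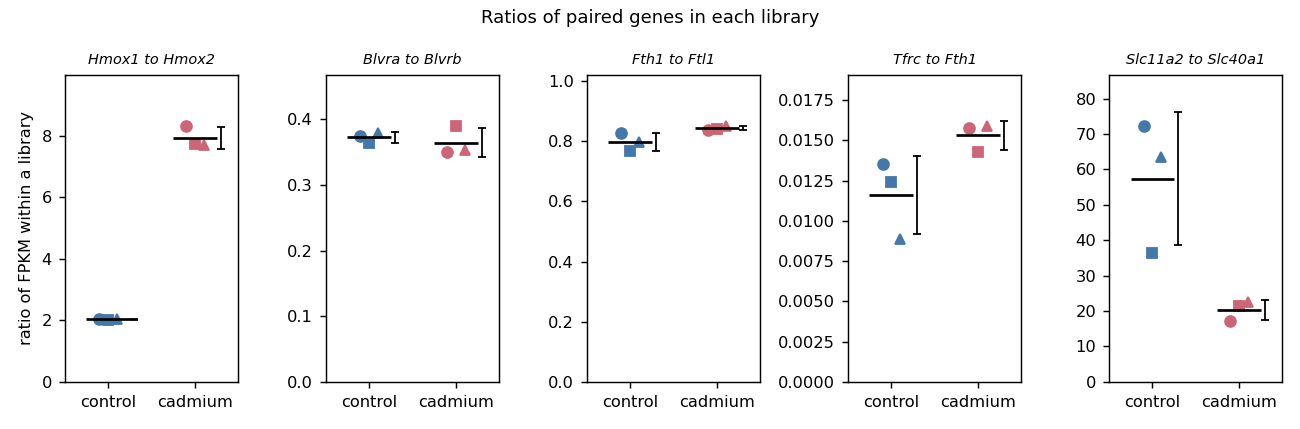
Ratios of FPKM within each library for 5 pairs of genes, with marker shapes for replicates, black lines for group means and bars for 1 SD. Control and cadmium libraries were apart for all pairs but Blvra to Blvrb, most widely for Hmox1 to Hmox2 (2.04 against 7.91).

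Per length, the order of the control means was Ftl1, Fth1, Hmox1, Hmox2, Blvrb, Ireb2, Tfrc, Blvra, Slc11a2 and Slc40a1. Only Ireb2 and Tfrc, at 15.9 and 14.1 FPKM, overlapped as neighbours in that order. With cadmium Tfrc stood above Ireb2, at 21.4 against 15.5 FPKM without overlap. Hmox2 and Blvrb then overlapped as neighbours, at 27.8 and 26.5 FPKM. All 10 genes summed to 0.308 ± 0.0146% of a control library and 0.366 ± 0.00300% of a cadmium library (SD, n = 3).

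Other genes of heme handling moved in both directions. Of 13 heme synthesis genes 4 rose and 6 fell, with a median log2 fold change of -0.14. The number that fell was 2 without control replicate 3, cadmium replicate 2 or cadmium replicate 3, and 3 without cadmium replicate 1. Abcb6, a porphyrin transporter (0.41 ± 0.06), Alad, which condenses aminolevulinic acid (0.44 ± 0.08), and Cpox (0.29 ± 0.06) rose. Alas1, the rate-limiting enzyme outside red cells, fell from a mean of 90.3 to 79.3 CPM (-0.19 ± 0.05, edgeR adjusted p = 0.0051), and Clpx, the protease subunit that acts on it, by 0.20 ± 0.05 on the log2 scale. Uros fell too (-0.31 ± 0.11), a call lost on the FPKM scales and without control replicate 3, cadmium replicate 2 or cadmium replicate 3 (adjusted p up to 0.15). Of 11 heme transport and binding genes tested 4 rose and 2 fell (median -0.06). The number that rose was 1 without cadmium replicate 2 and 2 without control replicate 2, cadmium replicate 1 or cadmium replicate 3. Slc48a1, which moves heme out of lysosomes, fell by 0.14 ± 0.05, and Hebp1 by 0.53 ± 0.11. Pgrmc1 (0.18 ± 0.04), Abcg2 (0.29 ± 0.08) and Pgrmc2 (0.13 ± 0.04) rose. The Slc48a1 call was lost without control replicate 3, cadmium replicate 2 or cadmium replicate 3, that of Abcg2 without cadmium replicate 2 (adjusted p = 0.066), and that of Pgrmc2 without any of 5 single libraries, all but control replicate 3.

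Among 16 genes of iron uptake and reduction 3 rose and 6 fell (median -0.12). Beside Tfrc and Slc11a2, the third that rose was Cybrd1, a ferric reductase (0.24 ± 0.04, edgeR adjusted p = 0.00035). Slc39a14, an importer of iron, zinc and manganese, fell from 71.7 ± 0.866 to 58.6 ± 3.62 CPM (-0.29 ± 0.05). Both Steap4, a metal reductase below 1 CPM in each group mean, and Cyb561a3 fell (-2.52 ± 0.41 and -0.32 ± 0.07). Steap4 went from 0.977 ± 0.146 to 0.166 ± 0.0966 CPM, with 3 to 45 counts in a library. It passed the filter on low counts only through the control libraries, where it was higher. Its log2 fold change ranged from -2.55 to -0.32 over the alternatives that kept all libraries and could test it. In the storage list, which holds both ferritins, 3 of 9 rose and 0 fell (median 0.03), with 1 that fell without control replicate 2. Pcbp1, an iron chaperone that loads ferritin, rose from 297 ± 3.50 to 367 ± 9.50 CPM (0.30 ± 0.04) and Pcbp3 by 0.31 ± 0.06. Of 7 export and systemic control genes tested, Slc40a1 and the very low Bmp6 rose, and Neo1 (-0.33 ± 0.04) and the ferroxidase gene Heph (-0.62 ± 0.20) fell. The median was 0.08. The Heph call was lost without control replicate 2 (adjusted p = 0.090), cadmium replicate 1 or cadmium replicate 2. Bmp6 went from 0.0565 ± 0.0142 to 0.363 ± 0.0589 CPM, with 2 to 16 counts in a library. It passed the filter on low counts only through the cadmium libraries, where it was higher. The number of this list that rose was 2 to 3 with 1 library left out and 0 to 3 in the other alternatives. The number that fell was 1 to 2 in both.

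The iron regulatory protein list of 8 genes had 1 that rose, the ubiquitin ligase scaffold Cul1 (0.23 ± 0.05), and 1 that fell, Ciao1 (-0.29 ± 0.07), with a median of 0.03. The number that fell was 2 without control replicate 2 and in 6 other alternatives, and 2 genes rose when control replicate 3 was left out. Of 6 tested from a list of further transcripts described or proposed to carry an iron responsive element, 2 rose and 3 fell (median -0.08). Epas1, which encodes HIF-2α, fell from 29.0 ± 1.01 to 18.9 ± 0.906 CPM (-0.62 ± 0.07, edgeR adjusted p = 5.1e-06). Hif3a fell too (-0.92 ± 0.19), and Cdc42bpa (0.18 ± 0.04) and App (0.13 ± 0.04) rose.

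Of the genes of mitochondrial iron and iron-sulfur clusters, 8 of 21 rose and 2 fell, with a median of 0.03. Slc25a37, the mitochondrial iron importer mitoferrin 1, rose from 10.5 ± 2.51 to 17.1 ± 1.30 CPM (0.70 ± 0.14, edgeR adjusted p = 0.0017), Hspa9 by 0.45 ± 0.05 and Gfer by 0.34 ± 0.07. Abcb8 (-0.19 ± 0.05) and Hscb (-0.25 ± 0.09) fell, the latter call being lost without any of 5 single libraries, all but control replicate 1. In cytosolic iron-sulfur assembly 6 of 15 rose (median 0.03), led by Ciapin1 (0.29 ± 0.06), Bola2 (0.29 ± 0.06) and Nubp1 (0.29 ± 0.06), and 2 fell, Cisd3 (-0.61 ± 0.14) and Ciao1.

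Hmox1, the ferritins and Slc40a1 are known targets of the repressor BACH1, which heme releases from DNA, and of the activator NRF2. In a list of these regulators and other targets, 14 of 20 rose and 1 fell (median 0.30). The values of Srxn1 (1.58 ± 0.06), Osgin1 (4.40 ± 0.24) and Slc7a11 (1.57 ± 0.10) stood beside the 1.90 of Hmox1, and Slc48a1 was the gene that fell. The number that fell was 2 without control replicate 1 and 0 without control replicate 3, cadmium replicate 2 or cadmium replicate 3. Osgin1 was very low in control, at 0.313 ± 0.171 CPM against 6.72 ± 0.598 CPM with cadmium (SD, n = 3). With as few as 7 counts in a control library, it passed the filter on low counts only through the cadmium libraries, where it was higher. Its log2 fold change ranged from 1.79 to 4.42 over the alternatives that kept all libraries. Bach1 itself, named after its value was seen, was at 53.9 ± 2.64 and 52.6 ± 1.14 CPM (adjusted p = 0.61), and Nqo1, chosen likewise, at 17.9 ± 2.32 and 16.4 ± 0.599 CPM (adjusted p = 0.26). Of 16 hypoxia response targets, 9 rose and 2 fell (median 0.21). Slc2a1 (0.83 ± 0.06), Hk2 (0.97 ± 0.10) and Ldha (0.46 ± 0.05) rose, and Pdk1 (-0.42 ± 0.09) and Kdm3a (-0.16 ± 0.05) fell, Kdm3a not without cadmium replicate 2 or 3. Of 16 ferroptosis regulators tested, Tfrc among them, 8 rose and 2 fell (median 0.15). They included Slc7a11, Vdac2 (0.27 ± 0.04) and Slc3a2 (0.29 ± 0.04), with Lpcat3 (-0.27 ± 0.05) and Ptgs2 (-0.86 ± 0.33) lower. The Ptgs2 call was lost with DESeq2 (adjusted p = 0.081), without a filter on low counts (0.085), on log2(FPKM + 1) (0.051), with the replicate block (0.062) and without any of 5 single libraries, all but control replicate 1.

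**Figure D5:**
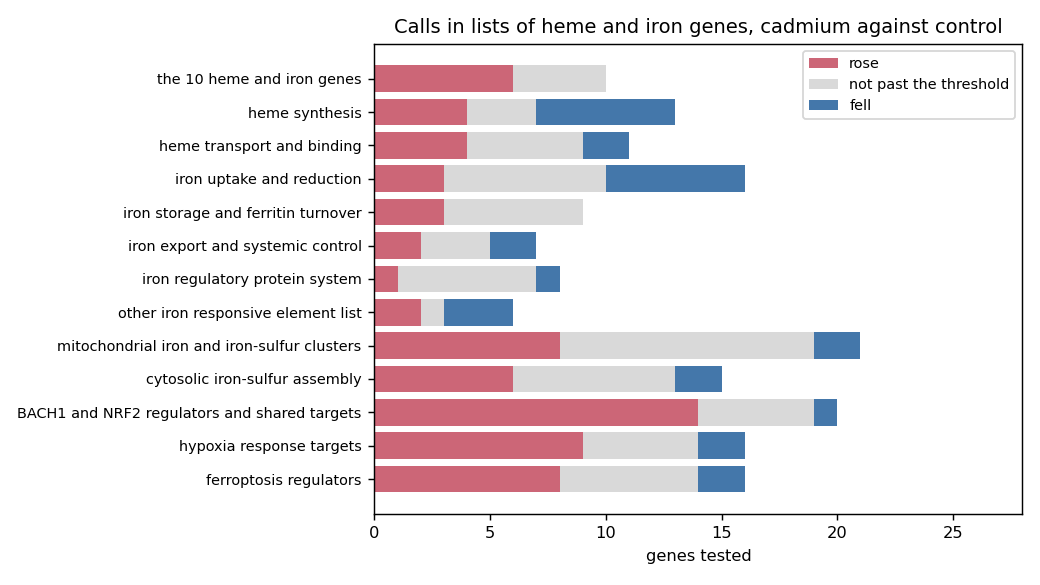
Number of genes tested in each list that rose (red), fell (blue) or did not pass the threshold (grey), for the 10 genes and 12 lists of heme, iron and stress genes, some of which share genes. The 10 genes have 6 that rose and 0 that fell, and heme synthesis has 4 and 6.

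Over all 12 lists without the 10 genes, 58 of 146 genes rose and 27 fell, with a median log2 fold change of 0.10. These counts stand beside the 23.1% and 22.4% of all genes tested that rose and fell. The lists were chosen with earlier results of these data known, so the counts are a description and no test.

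Markers of other cells that handle much heme or iron were low. Of 11 microglia and macrophage markers 7 had a row here, and their summed level was 0.935 to 1.28 CPM in control and 1.88 to 3.12 CPM in cadmium libraries. Cd68, a lysosomal protein gene of macrophages, rose from 0.701 ± 0.125 to 2.03 ± 0.510 CPM, while P2ry12 was at 0.395 and 0.333 CPM, Ptprc had 0 counts and Csf1r, Tyrobp, C1qa and Itgam had at most 2 in any library. The part of these markers in the results was not tested. The 9 erythroid markers summed to 0.196 to 0.451 CPM over all libraries, with Alas2, the red cell enzyme of heme synthesis, and Epb42 at 0.

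Astrocyte and oligodendrocyte markers were abundant, and many of them differed between the groups. Bulk RNA does not show whether they came from separate cell types or from the stem cells themselves. All 8 astrocyte markers fell, with summed levels of 4610 to 5665 CPM in control and 2139 to 2308 CPM in cadmium libraries. Gjb6, named after its values were seen, went from 0.532 ± 0.0673 to 0.0998 ± 0.0840 CPM. It passed the filter on low counts only through the control libraries, where it was higher. By the mean of all libraries Gfap and Aldh1l1 were the most abundant, at 2809 and 562 CPM in control and 875 and 489 CPM in cadmium. Aldoc, named after its values were seen, was above Aldh1l1 in control, at 691 CPM, and fell to 342 CPM. Of 8 oligodendrocyte lineage markers tested 2 rose and 5 fell, with sums of 3209 to 3355 and 3238 to 3403 CPM, led by Olig1 and Olig2, and Mog had at most 3 counts. The genes that rose were Olig1 and Olig2, whose calls were lost without control replicate 1, cadmium replicate 2 or cadmium replicate 3 and, for Olig2, also without control replicate 3, on the FPKM scales, with upper-quartile scaling or no scaling factor, and with at least 5 CPM in 3 libraries. Neuron markers (618 to 658 and 549 to 631 CPM) were mostly Map2, which did not pass, and of 7 tested 1 fell and 0 rose. The gene that fell was Dcx, named after its values were seen, from 4.07 ± 0.448 to 2.12 ± 0.411 CPM (-0.94 ± 0.17). Endothelial and pericyte markers summed to 3.23 to 4.29 and 3.24 to 3.42 CPM, mostly Kdr, with Rgs5 lower, though not past the threshold without control replicate 1 or cadmium replicate 3. Choroid plexus and ependyma markers summed to 56.7 to 65.2 and 39.9 to 43.9 CPM, nearly all Foxj1. The part of these shifts in the changes of the 10 genes was not tested.

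By likeness of log2 CPM to Hmox1 over the 6 libraries, among 10737 other genes, the nearest were P2rx7 (Pearson r = 0.9997), Tmem179 (0.9995), Hrob (0.9985), Pabpn1 (0.9981) and Diras2 (0.9977). The libraries form 2 separate groups, so this measure mainly reflects the step between them. P2rx7, an ATP-gated channel gene, went from 76.4 ± 0.738 to 103.9 ± 0.744 CPM.

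Promoter windows from 250 bases before to 50 after the start (RefSeq, GRCm38.p6) were at hand for 7 of the 10 genes, in 12 windows. Both strands were searched for 7 short motifs. The metal response element core TGCGCNC, present in 15.4% of all windows, occurred in 1 of the 12 windows, a window of Tfrc. TGCACNC occurred in 0 (12.6% of all). The hypoxia core ACGTG (19.6%) occurred in Tfrc and Blvrb, the heat shock core GAANNTTC (7.86%) in Hmox2, and the antioxidant core TGACNNNGC (12.4%) in Blvra. TGAGTCA (5.2%) and TTGCATCA (0.895%) occurred in 0 windows of these genes. Genes without a window, and bases outside the windows, were not searched. A count of 0 therefore does not show that any of the 10 genes lacks such sites. The 60 bases before the Tfrc start, chr16:32608836-32608895 on the plus strand, are shown because this gene rose and holds the metal core, with overlapping matches on both strands in capitals:
Tfrc, bases -60 to -1: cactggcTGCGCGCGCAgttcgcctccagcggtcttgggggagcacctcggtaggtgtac
A match describes the letters only, and binding to it was not measured.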

How the data were processed

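Transcripts were measured by RNA sequencing of mRNA-enriched libraries from 6 cultures, per the labels' protocols. The authors deposited whole-number counts per gene and FPKM. Named in the submitters' processing notes are build GRCm39 and the tools HTSeq 0.11.2, fastp 0.20.1, DESeq2 1.22.2 and HISAT2 2.1.0, without roles. The annotation and strand setting are not given in the sources used here, so reads of overlapping antisense genes cannot be told apart. FPKM equalled counts over library total and 1 length per gene, with deviations of at most 1.63e-08 relative to the value, so the FPKM are no second measurement.

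Counts were tested with edgeR 4.0.16 (TMM scaling, robust quasi-likelihood fit with a term for group alone) in R 4.3.3 after filterByExpr (minimum count 10, minimum total 15), which kept 99.96% of counts. P-values are two-sided and adjusted by the Benjamini-Hochberg method over 14369 genes. The standard error is the absolute log2 fold change over the square root of F. The fit was also run on simulated counts, in which far fewer genes changed than were called in the data. That run does not show how accurate the calls are here. Alternatives used DESeq2 1.42.0, limma 3.58.1 on log2(FPKM + 0.1) or log2(FPKM + 1), other scalings and filters, a replicate block, and each library left out.

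The 10 genes and the lists were chosen with earlier results of these data known. From each list the text names up to 3 genes that rose and 3 that fell, by smallest p, the 2 most abundant markers of each cell type, and the 5 genes nearest to Hmox1. Genes named outside this rule are marked so in the text, and some that it names are not reported here. Cpr, Ftmt, Hephl1, Aif1, Cx3cr1, C1qb and Trem2 were listed too and are not analysed here. Sequences are on GRCm38, and no coordinates were carried to GRCm39. Within pathway lists, calls are at adjusted p below 0.05 in edgeR.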

Additional observations from a re-analysis of the deposited data

How the results depend on the processing

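Hmox1, Tfrc and Fth1 kept their direction and stayed past the threshold in all 16 alternatives, and Slc40a1 in the 14 that could test it. It was left out by the minimum of 5 CPM in 3 libraries and by that of a mean FPKM of 1. The number of the 10 genes that rose was 4 to 7 with 1 library left out and 5 to 7 otherwise, and 0 fell throughout. Hmox2 and Ireb2 passed in 0 alternatives. Blvrb had log2 fold changes of 0.15 to 0.24 and Slc11a2 of 0.15 to 0.19 with 1 library left out, with calls lost as given above, and Slc11a2 was 0.15 on log2(FPKM + 0.1). Blvra passed on log2(FPKM + 0.1) with (0.16) and without (0.16) the FPKM minimum and on log2(FPKM + 1) (0.15). Ftl1 passed without a filter on low counts (0.14), with the replicate block (0.12) and without control replicate 3 (0.064 to 0.18 over the libraries left out). The median of the 10 genes was 0.21 without a filter, 0.16 with either minimum, 0.17 on log2(FPKM + 1) and 0.17 to 0.21 with 1 library left out. In the lists without the 10 genes, 17 to 29 fell with 1 library left out, with 17 without cadmium replicate 2 or 3. Their median was 0.0658 on log2(FPKM + 1) and 0.06314 to 0.11 with 1 library left out.

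No label says that libraries of the same replicate number shared a culture. Their deviations from the group means correlated by -0.0105 to 0.0517, which cannot show whether anything was shared. The replicate block changed the call of Ftl1 (adjusted p = 0.049) and of none of the other 9 genes. Medians below 0 came above it for heme transport (0.11 with at least 5 CPM in 3 libraries, 0.02 with a mean FPKM of at least 1, 0.12 without cadmium replicate 1), iron uptake (0.03 with the FPKM minimum) and the other iron responsive element list (0.12 with either minimum). Depth limits the precision of Slc40a1, at 11 to 48 counts. The cause of these shifts was not tested.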
